A study of Mus musculus with 6 samples.

Results

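The messenger RNAs made from the mitochondrial genome were measured in sorted cells that the labels call radial glial progenitors. These progenitors are the stem cells of the embryonic cortex, which span its wall and divide at the ventricle. Members were all genes whose name starts with mt-, which gave 13 genes of 32285 in the table, and all 13 were protein coding. The annotation also places 2 ribosomal RNA and 22 transfer RNA genes on the mitochondrial genome, and these were not analysed here. Neocortex cells of wild-type (WT) mouse embryos at stage E10.5 were dissociated and cultured, and about 2 hours later received either GSK2837808A, an inhibitor of lactate dehydrogenase, or an equal volume of the solvent DMSO. The labels give 100 mM for the inhibitor, a dose that was not verified. After about 24 h, living cells carrying the surface protein CD133 (CD133+, DAPI-) were isolated by sorting, about 1000 for each sample, and made into Smart-seq2 libraries, which start from polyadenylated RNA and do not mark strand. Each group held 3 libraries, called DMSO and GSK here, and separate cultures or animals are not named in the labels, which means that the p-values rest on a spread between libraries that may be technical.

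The mitochondrial genome is a small circle present in many copies per cell. Both of its strands are transcribed into long precursors, from which most messenger RNAs are freed by cutting out the transfer RNAs that lie between them. Its messenger RNAs encode core subunits of respiratory complexes I, III and IV and of the ATP synthase, complex V, while all other subunits come from nuclear genes. The RNA polymerase is Polrmt, which works with Tfam and Tfb2m, and the proteins Lrpprc and Slirp stabilise the messenger RNAs.

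Of the 13 genes, 12 are read as heavy strand transcripts and only mt-Nd6 is annotated on the opposite strand. The compact layout leaves overlaps, where a read can belong to either neighbour. The sequences below are from the GENCODE vM21 transcripts on GRCm38. The end of mt-Atp8 (mitochondrial positions 7927 to 7969) already holds the start of mt-Atp6, 43 bases in all, and the end of mt-Nd4l (10144 to 10173) shares its last 7 bases with mt-Nd4. Capitals mark the start codon of the second gene.
mt-Atp8 end: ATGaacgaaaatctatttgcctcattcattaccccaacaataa
mt-Nd4l end: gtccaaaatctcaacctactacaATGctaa

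The ends of mt-Nd5 (13536 to 13565) and mt-Nd6 (13552 to 13581, opposite strand) face each other. The 14 bases they share are in capitals, each printed 5′ to 3′ on its own strand.
mt-Nd5: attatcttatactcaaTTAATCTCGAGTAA
mt-Nd6: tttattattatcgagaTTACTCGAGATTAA

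The 3′ ends show where the poly(A) tail takes part in the code. mt-Co1 (6849 to 6872) ends in a complete stop codon, while mt-Nd4 (11521 to 11544), mt-Co3 (9367 to 9390) and mt-Cytb (15265 to 15288) end in the single capital base of a stop codon that the poly(A) tail completes, as is known for mitochondrial messenger RNAs.
mt-Co1: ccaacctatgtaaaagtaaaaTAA
mt-Nd4: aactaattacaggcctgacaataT
mt-Co3: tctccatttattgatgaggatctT
mt-Cytb: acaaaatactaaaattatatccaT

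Nuclear chromosomes also carry pasted stretches of mitochondrial DNA, and one of them is nearly indistinguishable from its source. On chr1:24611535-24616197 (GRCm38, 4663 bases) lie 7 annotated pseudogenes that match consecutive mitochondrial genes at 99% identity or more. They cover over 95% of mt-Co2, mt-Atp6, mt-Co3, mt-Nd3 and mt-Nd4l, 63.6% of mt-Nd4 and the last 31.3% of mt-Co1. mt-Atp8 has no pseudogene of its own, but the spacing of its neighbours places it at chr1:24614609-24614812 within the same run. None of these pseudogenes was among the genes analysed. The first 60 bases of mt-Co2 (7013 to 7072) and of its copy Gm28661 (chr1:24615506-24615565, minus strand) show the match, and 681 of the 684 bases of the gene align with no difference.
mt-Co2: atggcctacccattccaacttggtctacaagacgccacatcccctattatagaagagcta
Gm28661: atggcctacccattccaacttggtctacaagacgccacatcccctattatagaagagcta

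In mt-Co1 the copied end begins in the window below (6390 to 6449), shown with Gm29216 (chr1:24616129-24616188) and with Gm13340 (chr2:22588526-22588585), a less similar copy of the whole gene on chromosome 2. Both pseudogenes are on the minus strand, and capitals mark bases that differ from mt-Co1. Gm29216 differed at 1 of 483 aligned bases and Gm13340 at 37 of 1545.
mt-Co1: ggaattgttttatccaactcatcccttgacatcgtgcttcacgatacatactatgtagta
Gm29216: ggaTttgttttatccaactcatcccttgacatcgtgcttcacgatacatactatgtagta
Gm13340: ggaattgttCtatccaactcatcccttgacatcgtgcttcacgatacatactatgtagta

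The libraries held 7187089 to 10224348 reads, recovered from the normalised values, and totals did not differ between the groups beyond their spread (two-sided exact permutation test, p = 0.8). Reads of the 13 genes numbered 48311 to 93726 per library. Radial glial markers were present, with all 12 of the list detected and summed levels of 23755 to 24671 normalised reads in DMSO and 12244 to 15254 in GSK libraries. Vim, which was not called lower, led this sum (10011 to 10255 for DMSO, 8061 to 10278 for GSK). Other markers were present too. Mesenchymal and mural markers summed to 27797 to 35178 and 16834 to 25859 normalised reads, led by the collagen gene Col3a1. Neuron markers summed to 7396 to 14796 and 21715 to 26577, and intermediate progenitor markers to 914 to 1350 and 2162 to 3002. Red blood cell markers summed to 2461 to 21016 and 186922 to 277396, and myeloid markers to 71.3 to 362 and 636 to 1548. Endothelial markers were low in both groups, at 65.9 to 88.3 and 63.7 to 85.3, and no marker of any list was at 0 in every library. Over all 15073 genes tested, limma called 17.0% higher and 19.1% lower in GSK libraries at an adjusted p below 0.05. Beside these shares, radial glial markers fell in 9 of 12 cases, with a median log2 fold change of -1.39 over the list. Falls were largest for Fabp7 (log2 -3.78), Slc1a3 (-3.21) and Hmga2 (-2.90). Their group means were 2961, 572 and 2517 for DMSO against 219, 62.3 and 337 for GSK. The smallest of the 9 falls was that of Prom1, the gene of the sorted protein CD133 (log2 -1.01, limma adjusted p = 7.61e-06). The 3 not called were Vim (log2 -0.10), Emx2 (-0.06) and Lhx2 (0.31). In the other direction, 6 of 7 intermediate progenitor, 4 of 10 neuron, 8 of 9 tested red blood cell and 6 of 10 myeloid markers rose by limma. Mesenchymal and mural markers fell in 3 of 8 cases, and 0 of 4 tested endothelial markers were called by limma (1 at an unadjusted p below 0.05, 1 by edgeR and 0 by DESeq2). The 3 genes that overlap ribosomal RNA took 20.2 to 21.6% of DMSO and 23.2 to 26.1% of GSK reads. Among them Gm26917 fell with a log2 fold change of -0.81 (limma adjusted p = 0.00302). The 2 others had log2 fold changes of 0.33 and were not called by limma. Of the 3, edgeR called 1 and DESeq2 all 3. The part of these cell types in the mitochondrial results was not tested, and in such bulk samples fewer cells of a type and less RNA per cell cannot be told apart.

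The comparison of GSK with DMSO asks how these sorted cells differ when lactate dehydrogenase is inhibited. Of the 13 mitochondrial messenger RNAs, 9 rose, against 17.0% of the 15073 genes tested that rose (limma on log2(normalised value + 1), Benjamini-Hochberg adjusted p below 0.05). None fell by limma, where 19.1% of all genes did, nor by edgeR or DESeq2 on recovered reads, and 0 had a lower value at an unadjusted p below 0.05. All 13 fold changes were positive, from 0.33 to 1.04 on the log2 scale, with a median of 0.68 against 0.01 for all genes tested. The 3 GSK values lay wholly above the 3 DMSO values for 9 of 13, against 22.8% of all genes tested. Most of the 13 are cut from shared precursors, so these counts are not over independent genes. Adding 1 before the logarithm makes the fold change of low genes, such as mt-Nd4l, smaller than it is.

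As a share of all reads, the 13 genes took 0.697% in DMSO replicate 1 (95% Wilson interval 0.691 to 0.702), 0.519% in replicate 2 (0.515 to 0.524) and 0.528% in replicate 3 (0.523 to 0.532). The GSK libraries gave 0.953% (0.946 to 0.960), 0.892% (0.886 to 0.898) and 1.08% (1.07 to 1.09). These intervals cover counting error only, and the groups did not overlap. In normalised reads, the 13 genes summed to 57992, 44849 and 44896 in DMSO replicates 1, 2 and 3 and to 77936, 83807 and 99451 in GSK replicates 1, 2 and 3. Red blood cell markers, in the same order, summed to 15031, 21016 and 2461 and to 186922, 277396 and 274372. Both sums were higher in every GSK library than in every DMSO library, and GSK replicate 1 was the lowest of its group in both. Within the groups they also differed. The highest libraries were DMSO replicate 1 and GSK replicate 3 for the mitochondrial sum, but DMSO replicate 2 and GSK replicate 2 for the red blood cell sum. DMSO replicates 2 and 3 were nearly equal in the mitochondrial sum and far apart in the other. A link between these sums was not tested, and treatment and red blood cell content cannot be told apart in these libraries.

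**Figure D1:**
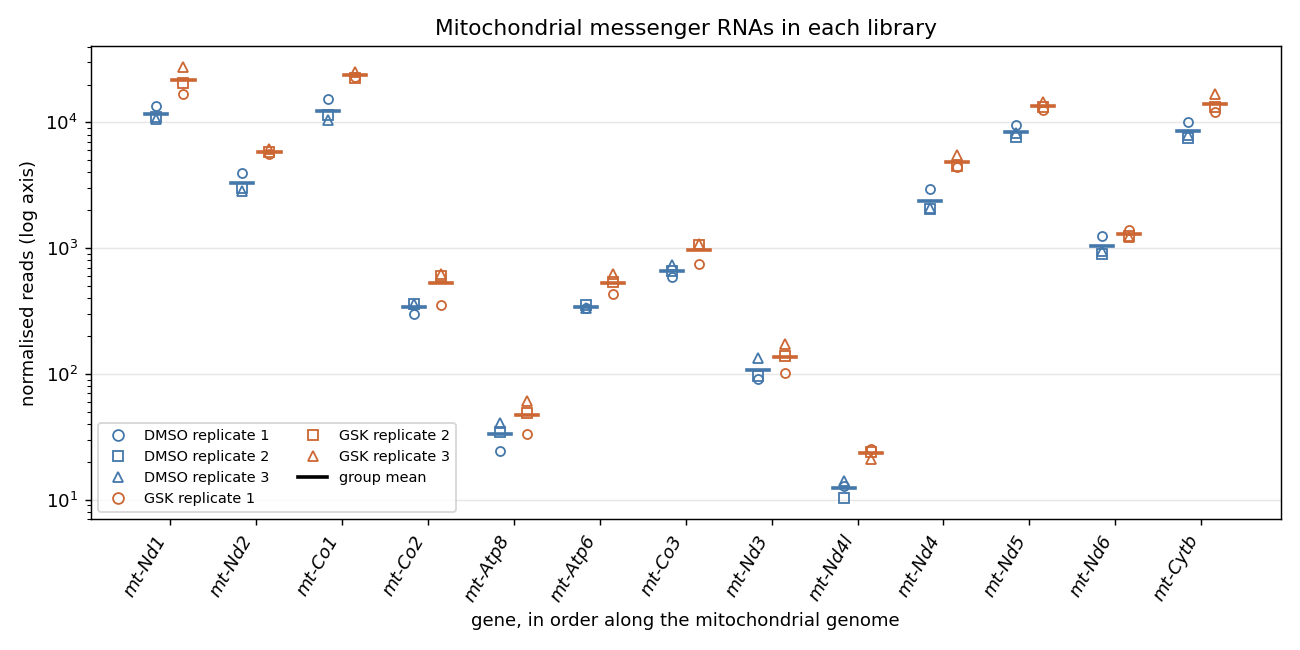
Normalised reads (log axis) of the 13 mitochondrial messenger RNAs in each of the 3 DMSO (blue) and 3 GSK (orange) libraries, in gene order along the mitochondrial genome, with horizontal bars at the group means. The GSK symbols lie wholly above the DMSO symbols for 9 of the 13 genes, and mt-Atp8 and mt-Nd4l have the fewest reads.

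Complex I, the NADH dehydrogenase that passes electrons from NADH to ubiquinone while pumping protons, has 7 of the 13 genes, and 4 of them rose. mt-Nd4, one of the antiporter-like proton-pumping subunits, had 2962, 2047 and 2098 normalised reads in DMSO and 4400.4, 4506 and 5536 in GSK libraries. It had the largest fold change of the 13, 2.03-fold or 1.04 on the log2 scale (standard error 0.16, limma adjusted p = 3.29e-05), and every GSK library was above every DMSO library. As 63.6% of its length lies in the chromosome 1 run, its level and fold change carry the uncertainty of the copies. mt-Nd1, which lies next to the ubiquinone site, had 13518, 10982 and 10703 normalised reads in DMSO and 16902, 20726 and 27357 in GSK libraries. Its fold change was 0.86 on the log2 scale (standard error 0.18, limma adjusted p = 0.000785), with GSK replicate 3 far above the other libraries.

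The antiporter-like subunit gene mt-Nd2 had 3995, 2985 and 2836 normalised reads in DMSO libraries and 5619, 5779 and 6146 in GSK libraries. It rose 1.79-fold (log2 0.85, standard error 0.15, limma adjusted p = 0.000156), and DMSO replicate 1 was the closest of the controls. mt-Nd5, the longest of the messenger RNAs and again an antiporter-like subunit, had 9451, 7599 and 8276 normalised reads in DMSO and 12645, 13228 and 14616 in GSK libraries. Its rise of 1.60-fold (log2 0.68, standard error 0.15, limma adjusted p = 0.0014) also left no overlap between the groups.

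The 3 other complex I genes encode small membrane subunits and did not pass the test. mt-Nd6, the light strand gene, had 1259, 899.6 and 949 normalised reads in DMSO and 1401, 1257 and 1216 in GSK libraries. Here DMSO replicate 1 exceeded 2 of the GSK libraries, and the log2 fold change was 0.33 with a 95% confidence interval of 0.04 to 0.62 (limma adjusted p = 0.0698). Without DMSO replicate 1 it was 0.48 and passed (limma adjusted p = 0.0226). mt-Nd3 had 90.3, 95.4 and 134 normalised reads in DMSO and 102, 138 and 172 in GSK libraries. The groups overlapped, and its log2 fold change of 0.36 had an interval of -0.07 to 0.78 (limma adjusted p = 0.189). It passed only without GSK replicate 1 (log2 0.55, limma adjusted p = 0.0278). mt-Nd4l rested on 12 to 26 reads per library. Its normalised reads were 12.7, 10.3 and 13.9 in DMSO and 25.0, 23.9 and 21.2 in GSK libraries, which did not overlap. The log2 fold change was 0.88, with a wide interval of 0.14 to 1.61 (limma adjusted p = 0.0579). It passed with a pseudocount of 10 (limma adjusted p = 0.0484) and with totals that leave out mitochondrial, globin and ribosomal RNA overlapping genes (0.0483).

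mt-Cytb encodes cytochrome b, the haem-bearing core of complex III and its only subunit made in mitochondria. It had 10011, 7473 and 8013 normalised reads in DMSO and 12196, 13253 and 16735 in GSK libraries. The groups did not overlap, and the rise was 1.65-fold (log2 0.72, standard error 0.16, limma adjusted p = 0.00175).

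Cytochrome c oxidase, complex IV, reduces oxygen to water, and all 3 of its mitochondrial genes rose. mt-Co1, which encodes the subunit that holds the oxygen-reducing centre, had 15444, 11354 and 10398 normalised reads in DMSO and 23070.3, 22660.2 and 25256 in GSK libraries. It rose 1.91-fold (log2 0.95, standard error 0.17, limma adjusted p = 0.000169), without overlap. mt-Co2, the subunit that takes electrons from cytochrome c, had 299.6, 358 and 361 normalised reads in DMSO and 356, 598 and 625 in GSK libraries. GSK replicate 1 lay within the DMSO range, while the other GSK libraries were far above it (log2 0.59, standard error 0.18, limma adjusted p = 0.016). mt-Co3, the third core subunit, had 594, 659.9 and 737 normalised reads in DMSO and 753, 1050.2 and 1085 in GSK libraries (log2 0.52, standard error 0.15, limma adjusted p = 0.00838). The calls of mt-Co2 and mt-Co3 were lost without DMSO replicate 1 (limma adjusted p = 0.08 and 0.0596) and without GSK replicate 2 (0.0846 and 0.0587). That of mt-Co2 was also lost without GSK replicate 3 (0.067).

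In the ATP synthase, mt-Atp6 encodes the subunit that forms the proton path, and it had 332, 352 and 336 normalised reads in DMSO and 434, 538 and 625 in GSK libraries. It rose 1.56-fold (log2 0.63, standard error 0.14, limma adjusted p = 0.00195) and the groups did not overlap. mt-Atp8, a small subunit of the stator, had 24.4, 34.4 and 40.9 normalised reads in DMSO and 33.0, 48.7 and 60.5 in GSK libraries. These overlapped, and its log2 fold change of 0.49 had an interval of -0.11 to 1.08 (limma adjusted p = 0.194).

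**Figure D2:**
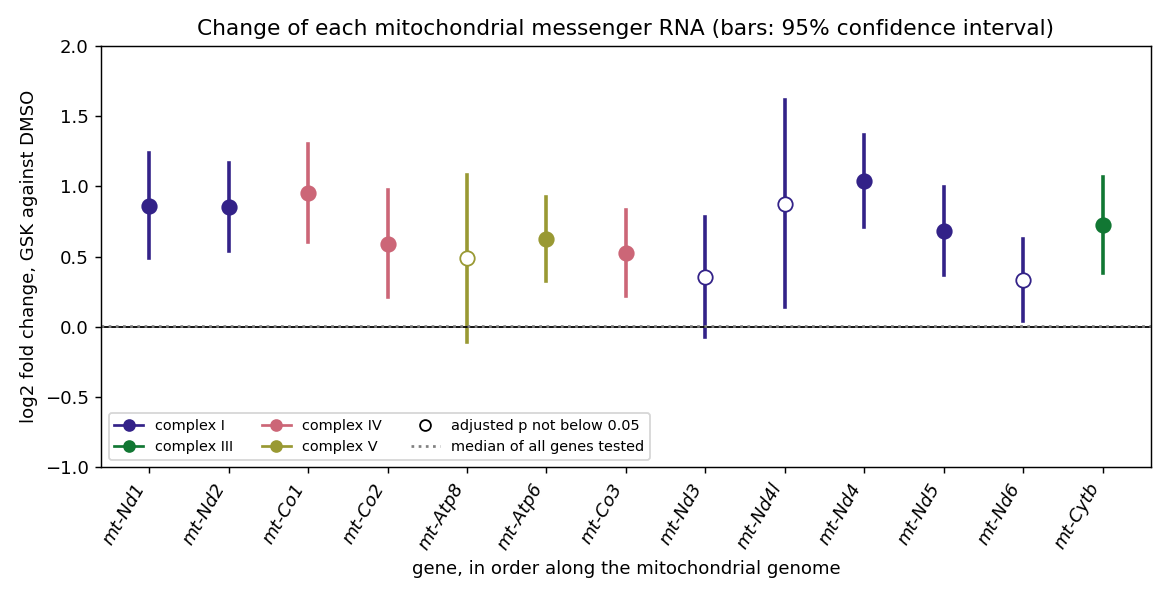
Log2 fold change of GSK against DMSO for each of the 13 genes in genome order, coloured by complex, with 95% confidence intervals from limma, and with open circles where the adjusted p was not below 0.05. All 13 points lie above 0, and the dotted line is the median of all genes tested, 0.01.

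Levels between genes were compared per length, as normalised reads per kilobase. In DMSO libraries the order ran from mt-Nd1 (12261 ± 1621, mean ± SD, n = 3) through mt-Co1 (8025 ± 1735), mt-Cytb (7429 ± 1168), mt-Nd5 (4628 ± 514), mt-Nd2 (3152 ± 607), mt-Nd6 (1996 ± 375) and mt-Nd4 (1719 ± 373). Below these came mt-Co3 (846 ± 91.4), mt-Atp6 (499.8 ± 15.4), mt-Co2 (496 ± 50.6), mt-Nd3 (306 ± 68.4), mt-Atp8 (163 ± 40.6) and mt-Nd4l (41.5 ± 6.23). The highest and the lowest gene thus differed by 295-fold, although most of these genes are read from the same precursor. As mt-Nd4l lies in the chromosome 1 run, this ratio carries the uncertainty of the copies. The lowest, mt-Nd4l, overlaps mt-Nd4 by 7 bases, with no transfer RNA gene annotated between them. The same holds for mt-Atp8 and mt-Atp6, which share 43 bases. These are therefore levels per gene, which in such pairs need not be those of separate molecules. Neighbours whose libraries overlapped in this order were mt-Co1 and mt-Cytb, mt-Nd6 and mt-Nd4, and mt-Atp6 and mt-Co2.

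In GSK libraries the order of levels per kilobase was the same except that mt-Nd4 (3493 ± 455) stood above mt-Nd6 (2488 ± 187), with no overlap between these genes. The highest was again mt-Nd1 (22635 ± 5528) and the lowest mt-Nd4l (78.7 ± 6.59), 288-fold apart, with the same uncertainty of the copies. Overlapping neighbours were mt-Atp6 and mt-Co2, and mt-Nd3 and mt-Atp8.

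The 6 lowest genes by level per kilobase were those of the chromosome 1 run: the 5 whose whole length lies in it, with mt-Co2 printed above as the example, and mt-Atp8. Their DMSO means ran from 41.5 to 846 per kilobase, and those of the 7 other genes from 1719 to 12261. The medians of the classes, 401 and 4628, differed by 11.5-fold in DMSO and by 12.7-fold (582 and 7399) in GSK libraries. mt-Nd4, with 63.6% of its length in the run, was the lowest of the other 7 in DMSO libraries. The 6 lowest genes were also short, with 204 to 784 bases, against 957 to 1824 for the other 7 apart from mt-Nd6 (519). How reads that match several places in the genome were counted is not given in the sources used here. The parts of the copies and of gene length in these levels were not tested. The levels of these 6 genes, of mt-Nd4 and of the copied end of mt-Co1 are therefore uncertain, and so is how the fold changes of these 8 genes should be set against the rest. Less similar copies cover mt-Nd6 (100% of its length at 93.6% identity) and mt-Cytb (99.8% at 92.9%). Others cover parts of mt-Nd5 (57.7% at 92.4% and 52.3% at 95.2%) and of mt-Nd2 (49.1% at 96.7%). The part of these copies in the levels was also not tested.

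**Figure D3:**
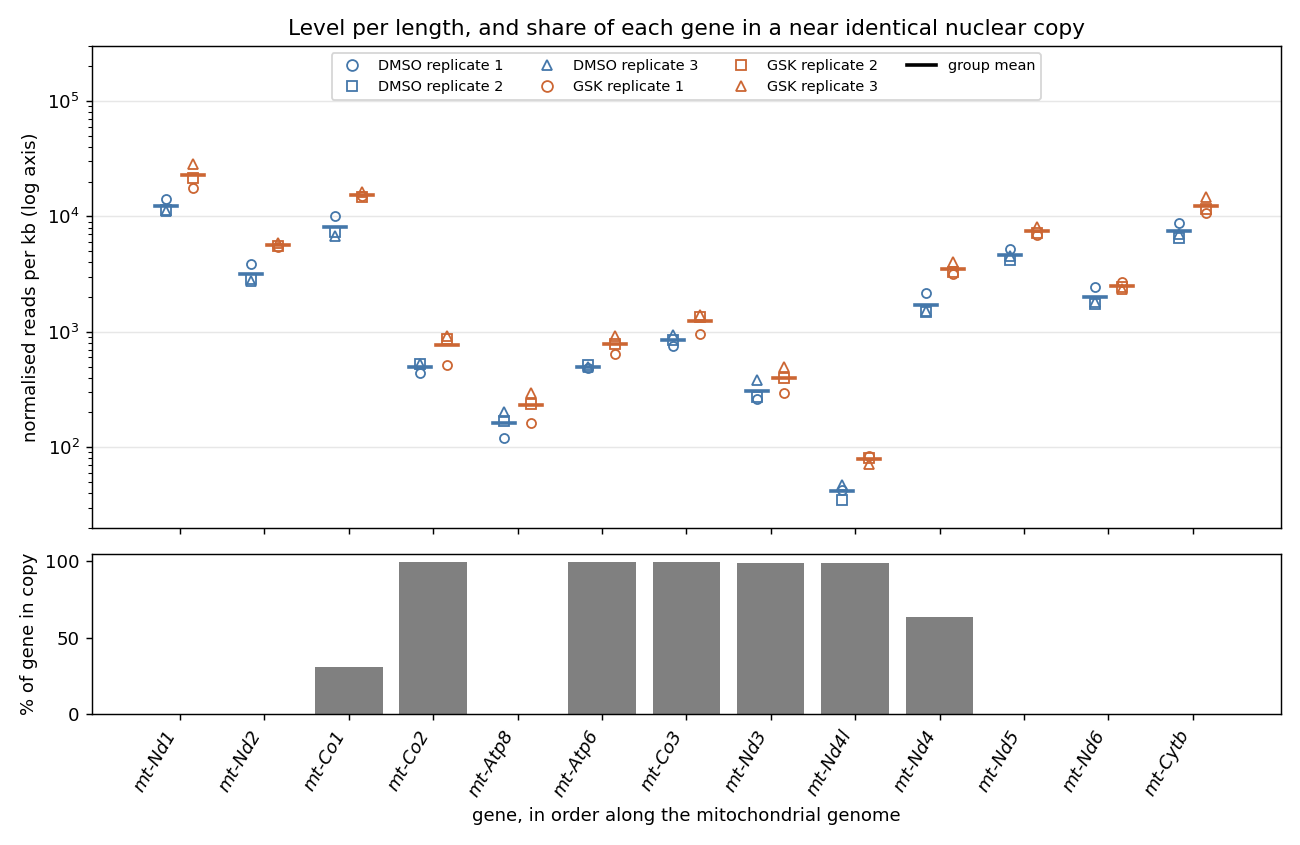
Upper panel, normalised reads per kilobase (log axis) of the 13 genes in each library, DMSO in blue and GSK in orange, with bars at the group means. Lower panel, the percent of each gene inside an annotated nuclear copy of at least 99% identity. The genes with bars near 100% and mt-Atp8, which lies between them, are the 6 lowest in the upper panel.

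The change in these 6 genes had a median log2 fold change of 0.56, with 3 of 6 called, and that of the other 7 a median of 0.85, with 6 of 7 called. The 6 genes summed to 1353, 1510.5 and 1623 normalised reads in DMSO replicates 1, 2 and 3 and to 1703, 2396 and 2589 in GSK replicates 1, 2 and 3. DMSO replicate 1 was therefore the lowest control for them, although it was the highest control for all 13 genes together. Among GSK libraries both classes were lowest in replicate 1 and highest in replicate 3. As a share of mitochondrial reads the 6 genes took 2.33%, 3.37% and 3.61% in DMSO and 2.19%, 2.86% and 2.60% in GSK libraries, which overlapped.

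Composition was then compared within the mitochondrial reads, a measure that library scaling does not change. In DMSO against GSK libraries (mean ± SD, n = 3), mt-Co1 took 25.0% ± 1.75 and 27.3% ± 2.12, mt-Nd1 23.9% ± 0.589 and 24.6% ± 2.91, mt-Cytb 17.3% ± 0.593 and 16.1% ± 0.638, and mt-Nd5 17.2% ± 1.10 and 15.6% ± 0.786. These 4 genes held most of the reads, and of them the share of mt-Nd5 alone did not overlap between the groups. The shares of 3 of the 13 genes did not overlap between the groups. For normalised reads, 22.8% of all genes tested lay wholly above and 24.4% wholly below the DMSO values in GSK libraries, and the 13 shares add up to a whole and are thus tied to one another. The share of mt-Nd4 was higher in GSK libraries, with 5.11%, 4.56% and 4.67% in DMSO and 5.65%, 5.38% and 5.57% in GSK libraries. That of mt-Nd5 was lower, although its ranges of 16.3 to 18.4% and 14.7 to 16.2% nearly touched.

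The share of mt-Nd6, the third of these, was lower in GSK libraries. It took 2.17%, 2.01% and 2.11% of mitochondrial messenger RNA reads in DMSO and 1.80%, 1.50% and 1.22% in GSK libraries. The means were 2.10% and 1.51%, and a two-sided exact permutation test gave p = 0.1, the smallest that 3 against 3 allows, so the design cannot reach 0.05. Relative to all reads, the heavy strand genes were 1.69-fold higher in GSK libraries and mt-Nd6 1.19-fold. Because the libraries do not mark strand, reads of mt-Nd6 and reads of the heavy strand precursor that runs antisense through it cannot be told apart. The libraries also start from polyadenylated RNA, and whether mt-Nd6 was captured as well as the other genes was not measured.

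**Figure D4:**
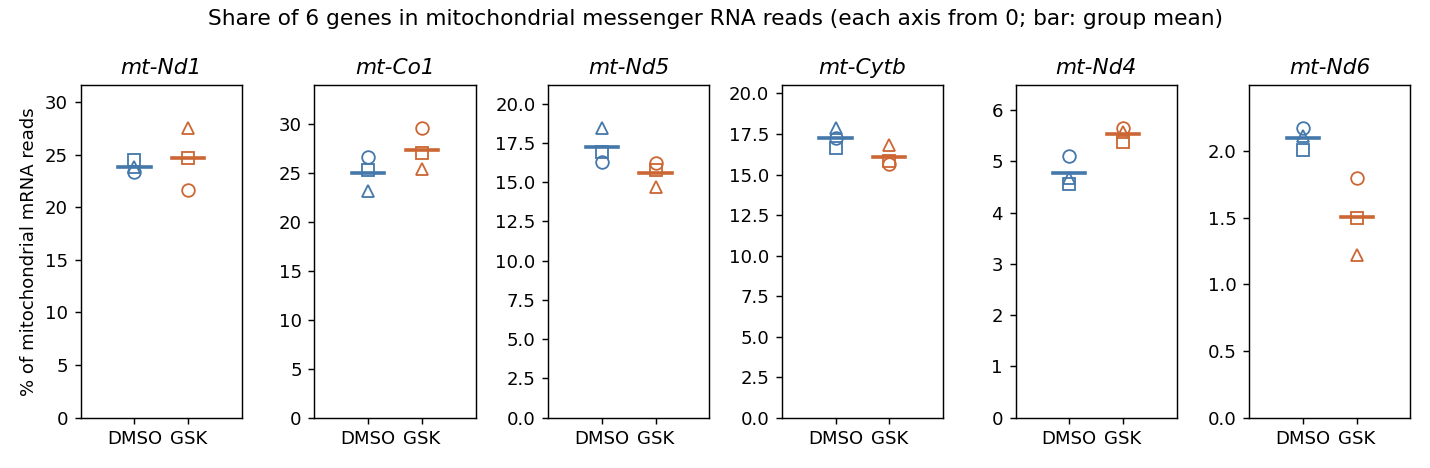
Percent of mitochondrial messenger RNA reads taken by 6 genes in each DMSO (blue) and GSK (orange) library, each axis starting at 0, with bars at the group means and circles, squares and triangles for replicates 1, 2 and 3. The mt-Nd4 share is higher in all GSK libraries, and those of mt-Nd5 and mt-Nd6 are lower.

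Shares of mitochondrial reads were also summed by complex. In DMSO against GSK libraries (mean ± SD, n = 3), complex I genes took 54.8% ± 0.878 and 54.2% ± 1.34, complex IV genes 27.1% ± 1.34 and 29.0% ± 1.96, and complex V genes 0.773% ± 0.137 and 0.662% ± 0.056. Libraries of both groups overlapped for each of these 3 complexes and for mt-Cytb of complex III. Both complex V genes lie in the chromosome 1 run, as do mt-Co2 and mt-Co3 of complex IV and mt-Nd3 and mt-Nd4l of complex I. The parts of these genes in the shares carry the uncertainty of the copies.

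Nuclear genes for the same complexes were read from the same fit. Of 76 nuclear subunit genes of complexes I to V, 3 rose and 4 fell, beside 17.0% and 19.1% of all genes tested. Their median log2 fold change was -0.07 against 0.01 for all genes tested. Complex I had 1 higher and 1 lower of 36, Ndufa6 (log2 0.58, limma adjusted p = 0.00286) and Ndufab1 (-0.41, limma adjusted p = 0.0232), and a median of 0.01. In complex III, Uqcrh and the core protein gene Uqcrc2 rose (log2 0.42 and 0.37) and Cyc1, which encodes cytochrome c1, fell (-0.38), with a median of -0.05 over 9 genes.

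Complex IV had 1 lower of 11, Cox5a (log2 -0.46, limma adjusted p = 0.0196), and complex V 1 lower of 16, Atp5g1 (log2 -0.47, limma adjusted p = 0.02), with medians of -0.11 and -0.20. Complex II, which is built from nuclear genes alone, had 0 of 4 called by limma, edgeR or DESeq2 and 0 at an unadjusted p below 0.05 by limma, with a median of -0.01. The mitochondrial genes of complexes I, III, IV and V had medians of 0.85, 0.72, 0.59 and 0.56. Those of complexes IV and V come from genes of the chromosome 1 run, whose fold changes carry the uncertainty of the copies. The difference between the genomes was not tested as such.

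**Figure D5:**
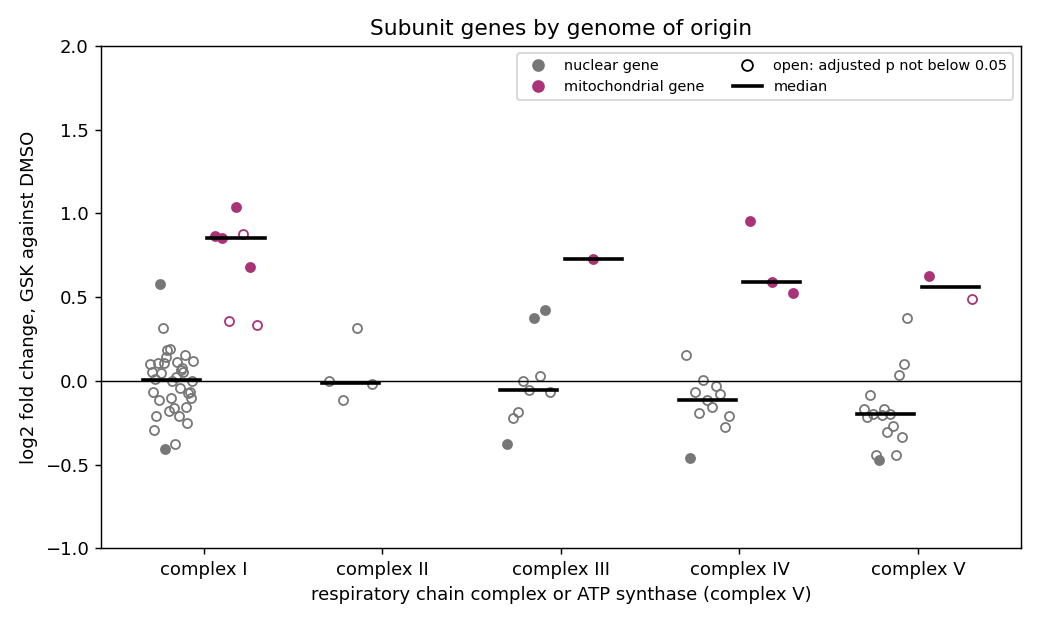
Log2 fold change of GSK against DMSO for each nuclear (grey) and mitochondrial (purple) subunit gene of complexes I to V, with filled points where the adjusted p was below 0.05 and black bars at the medians. The medians of the nuclear genes lie between -0.20 and 0.01, and those of the mitochondrial genes between 0.56 and 0.85.

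Factors that transcribe and copy mitochondrial DNA were mostly not called, with 1 of 16 higher and 5 lower (median 0.06). Tfam, which packages the genome and starts transcription, fell with a log2 fold change of -0.45 (limma adjusted p = 0.0105), and Polg, the catalytic subunit of the mitochondrial DNA polymerase, with -0.58 (limma adjusted p = 0.00533). Mterf2, of the termination factor family, rose with 0.83 (limma adjusted p = 0.0145). Among 25 genes of mitochondrial RNA processing and stability, 1 rose and 6 fell (median -0.13). Tbrg4 and Fastkd5, members of the FASTK family of RNA-binding proteins, fell with log2 fold changes of -0.96 (limma adjusted p = 1.47e-05) and -1.55 (limma adjusted p = 0.000247). Nsun4, which methylates mitochondrial ribosomal RNA, rose with 0.68 (limma adjusted p = 0.00203). The shares of these 2 lists that fell, 5 of 16 and 6 of 25, stand beside 19.1% of all genes tested. Ldha, the gene of the inhibited enzyme's main glycolytic subunit, fell in the same fit (log2 -0.78, limma adjusted p = 0.000424).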

How the data were processed

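The deposited signal values are gene read counts that the authors scaled per library, as the file header and values show. The submitters' processing notes name STAR, DESeq, GRCm38 and mm10 with no role or version, while the read counter and annotation release, and how reads with several matches were handled, are not given in the labels or the file header. One row was kept for each of 32285 genes (118098 transcript rows), and 51 of 128 unnamed genes were named from a reference table. Dividing each value by the lowest of its library gave a whole number within 0.01 for 100% of nonzero values, so whole reads were recovered. edgeR called 5536 genes and DESeq2 5129 on those reads, against 5446 in the main test.

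That test was limma 3.58.1 (R 4.3.3; trended, robust priors) on log2(value + 1) for 15073 genes (mean of at least 10 over the 6 libraries), fitted with group alone and adjusted by Benjamini-Hochberg over all of them. Alternatives were other pseudocounts, filters and scalings, a replicate block, each library left out, edgeR 4.0.16 and DESeq2 1.42.0. Positions came from GENCODE vM21 (GRCm38), and copies were found with BLAST 2.17.0 against its transcripts (at least 100 bases and 85% identity), so unannotated copies were not searched. The members and lists were chosen with earlier results of these data known. Nuclear genes were named as up to 2 called genes per list and direction by smallest p, or the smallest p where none was called.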

Additional observations from a re-analysis of the deposited data

How the results depend on the processing

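Under the 16 alternatives, 7 to 10 of the 13 mitochondrial genes were called higher and none lower, and 7 were called higher under every one (mt-Nd1, mt-Nd2, mt-Co1, mt-Atp6, mt-Nd4, mt-Nd5 and mt-Cytb). The filter at a mean of 100 left out mt-Atp8 and mt-Nd4l. No fold change of the 13 changed sign. Leaving out 1 library at a time gave 7 to 10 genes called higher. The difference in the mitochondrial percent of reads, 0.394 percentage points, became 0.598 when globin and ribosomal RNA overlapping genes were left out of the totals (0.737% ± 0.119 and 1.34% ± 0.111 in DMSO and GSK libraries, SD, n = 3). A smaller total raises the percent in both groups, and the ratio of the group means moved from 1.68 to 1.81. Replicate numbers are shared between the groups in the labels, but same-numbered libraries did not deviate together (correlations 0.01, -0.02 and 0.05, and not every library correlated best with its own number). With the replicate block 5642 genes were called against 5446, and the same count of 9 mitochondrial genes. Adding nuclear copies of the 13 genes to the mitochondrial sum was not run, since no annotated copy of them was among the genes analysed. Counts of 12 to 26 reads limit mt-Nd4l.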
